A study of Homo sapiens with 8 samples.

Results

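The genes described here are 10 plasma membrane carriers of amino acids: SLC7A11, SLC7A5, SLC3A2, SLC7A1, SLC38A1, SLC38A2, SLC1A4, SLC1A5, SLC6A9 and SLC43A1. They were taken by gene symbol from tables of 56269 genes, and all 10 were found. The set was chosen with earlier results of these data known, so counts of its members beside those of all genes are descriptions. RNA was sequenced from SNU1079 and SSP25, established human lines from cholangiocarcinoma (CCA), a cancer of the bile ducts. The labels give the genotype of both lines as wildtype, although SNU1079 is known to carry mutations of IDH1 and ARID1A. Both grew in high-glucose medium with serum. For 48 h the cells received vehicle (0.01% DMSO), BETp, mTORi or BETp + mTORi. BETp was 40 nM ARV825, a degrader that brings BET bromodomain proteins, readers of acetylated chromatin, to a ubiquitin ligase. mTORi was 50 nM AZD8055, an inhibitor of the kinase mTOR. Doses within BETp + mTORi are not stated by the labels. The design held 1 library for each line and treatment, 8 in all, so no p-value measures the spread between replicate cultures. For treatments against vehicle, the 2 lines stood as replicates. For a drug present against absent, libraries with and without the other drug stood as replicates as well. For differences in response between the lines, those libraries did so alone. Between the lines themselves, the 4 treatments stood as replicates.

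Cells take up most amino acids through such carriers, several of which swap one amino acid for another and so depend on their partners in the membrane. SLC3A2 is a single-pass glycoprotein, the heavy chain, that carries light chains to the cell surface. With SLC7A5 it imports leucine and other large neutral amino acids in exchange for glutamine, and with SLC7A11 it imports cystine, a source of glutathione, in exchange for glutamate. Leucine and arginine inside the cell activate mTORC1, and the transcription factor ATF4, which is made when amino acids are scarce and also under mTORC1, drives many carrier genes. Tumors commonly express SLC7A5, SLC7A11 and SLC1A5 at high levels.

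Values were TPM, shares of a library's transcripts corrected for gene length, so that levels can be set side by side between genes. The read depth cannot be recovered from TPM and is unknown here. Library totals ran from 998559 to 999362 TPM. Genes of the mitochondrial genome took 14.4% to 19.2% of TPM in SNU1079 and 5.99% to 10.1% in SSP25, with vehicle lowest and BETp + mTORi highest in both. Of 6 bile duct markers, SNU1079 expressed 5 at 1 TPM or more and SSP25 expressed 4, with CFTR under 1 TPM in both lines. EPCAM, an epithelial adhesion molecule, fell with BETp (log2 difference -0.57 ± 0.10 SE, adjusted p = 0.0403), while KRT7 was with BETp + mTORi at 125% of vehicle in SNU1079 and 59.6% in SSP25. Of 4 fibroblast markers, COL1A1 measured 1002.53 TPM in SNU1079 with vehicle and 272.22 TPM with BETp + mTORi, with COL1A2 and DCN under 1 TPM. Of 5 hepatocyte markers, SERPINA1 measured 41.75 and 7.64 TPM in the same libraries, with ALB and APOA1 under 1 TPM, and in SSP25 none of the 5 reached 1 TPM. Of 3 immune markers, CD68 lay between 76.39 and 209.54 TPM, and PTPRC and CD3E, which define leukocytes and T cells, under 1 TPM. The part of these genes in the carriers' results was not tested. In bulk RNA, fewer cells of a kind and less RNA per cell cannot be told apart.

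All carriers but SLC6A9 and SLC43A1 were expressed in both lines. SLC3A2 was the most abundant in each, at 93.79 to 167.04 TPM in SNU1079 and 220.06 to 318.32 TPM in SSP25. Its values were 167.04, 142.67, 110.09 and 93.79 TPM in SNU1079 with vehicle, BETp, mTORi and BETp + mTORi, the order used for all lists of 4 values here. In SSP25 they were 318.32, 285.12, 240.81 and 220.06 TPM. The order of the treatments was thus the same in both lines, and the lowest SSP25 library lay above the highest of SNU1079. The gene lies at chr11:62623476-62656352 on the plus strand of GRCh37.

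Of its light chains, SLC7A5 (chr16:87863629-87903113, minus strand) measured 145.66, 112.06, 80.34 and 52.22 TPM in SNU1079. In SSP25 it measured 154.08, 146.31, 93.10 and 107.48 TPM. Both libraries with mTORi were below both without it in each line. Reads of SLC7A5 could be shared with its near-identical partial copies SLC7A5P1 and SLC7A5P2, which were listed at 0.21 to 3.19 TPM. SLC7A11 (chr4:139085251-139163503, minus strand) measured 11.81, 13.93, 7.25 and 7.79 TPM in SNU1079, and 44.35, 40.56, 29.01 and 35.28 TPM in SSP25. SLC7A11 was lowest with mTORi in both lines, but its value with BETp was above vehicle in SNU1079 and below it in SSP25.

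SLC1A5 (chr19:47278140-47291851, minus strand) exchanges glutamine and other neutral amino acids with sodium. It measured 109.01, 61.47, 74.77 and 44.26 TPM in SNU1079 and 201.30, 176.22, 120.66 and 110.83 TPM in SSP25. SLC1A4 (chr2:65215611-65250999, plus strand), which exchanges serine, alanine and other small neutral amino acids, measured 22.52, 16.17, 15.40 and 11.53 TPM in SNU1079. It measured 20.63, 12.75, 7.81 and 7.81 TPM in SSP25. For both exchangers every treated library was below vehicle of its own line, and in SNU1079 the SLC1A5 value was lower with BETp than with mTORi while in SSP25 it was the reverse.

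SLC38A1 and SLC38A2, neighbours on chromosome 12 that take up glutamine and alanine together with sodium, differed from each other in SSP25. SLC38A1 (46576846 to 46663800, minus strand) measured 62.01, 53.23, 51.48 and 37.90 TPM in SNU1079 and 76.74, 68.19, 51.07 and 67.92 TPM in SSP25. SLC38A2 (46751971 to 46766556, minus strand) measured 90.79, 81.21, 78.95 and 66.68 TPM in SNU1079 and 130.58, 136.62, 108.00 and 150.96 TPM in SSP25. With BETp + mTORi, SLC38A2 was therefore at its lowest in SNU1079 and at its highest in SSP25. SLC7A1 (chr13:30083551-30169825, minus strand), the main carrier of arginine and lysine, measured 26.49, 19.13, 25.45 and 16.83 TPM in SNU1079 and 33.75, 25.62, 24.61 and 23.58 TPM in SSP25. Both SLC7A1 libraries with BETp were below both others in SNU1079, but in SSP25 the 3 treated libraries lay close together.

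SLC6A9 and SLC43A1 were near 0 in SNU1079. SLC6A9 (chr1:44457172-44497139, minus strand), which takes up glycine with sodium and chloride, measured 0.30, 0.08, 0.13 and 0.17 TPM there, and 24.77, 16.28, 7.99 and 5.45 TPM in SSP25. SLC43A1 (chr11:57252007-57283253, minus strand), a facilitator for branched-chain amino acids, measured 0.49, 0.10 and 0.20 TPM in SNU1079 and was listed at 0 with BETp + mTORi, against 20.40, 17.62, 18.21 and 14.78 TPM in SSP25. What the drugs did to these genes could thus be read in SSP25 alone, where SLC6A9 was at 22.0% of vehicle with BETp + mTORi and SLC43A1 at 72.5%. CCDC24, up to 14.29 TPM, overlaps SLC6A9 on the opposite strand.

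**Figure D1:**
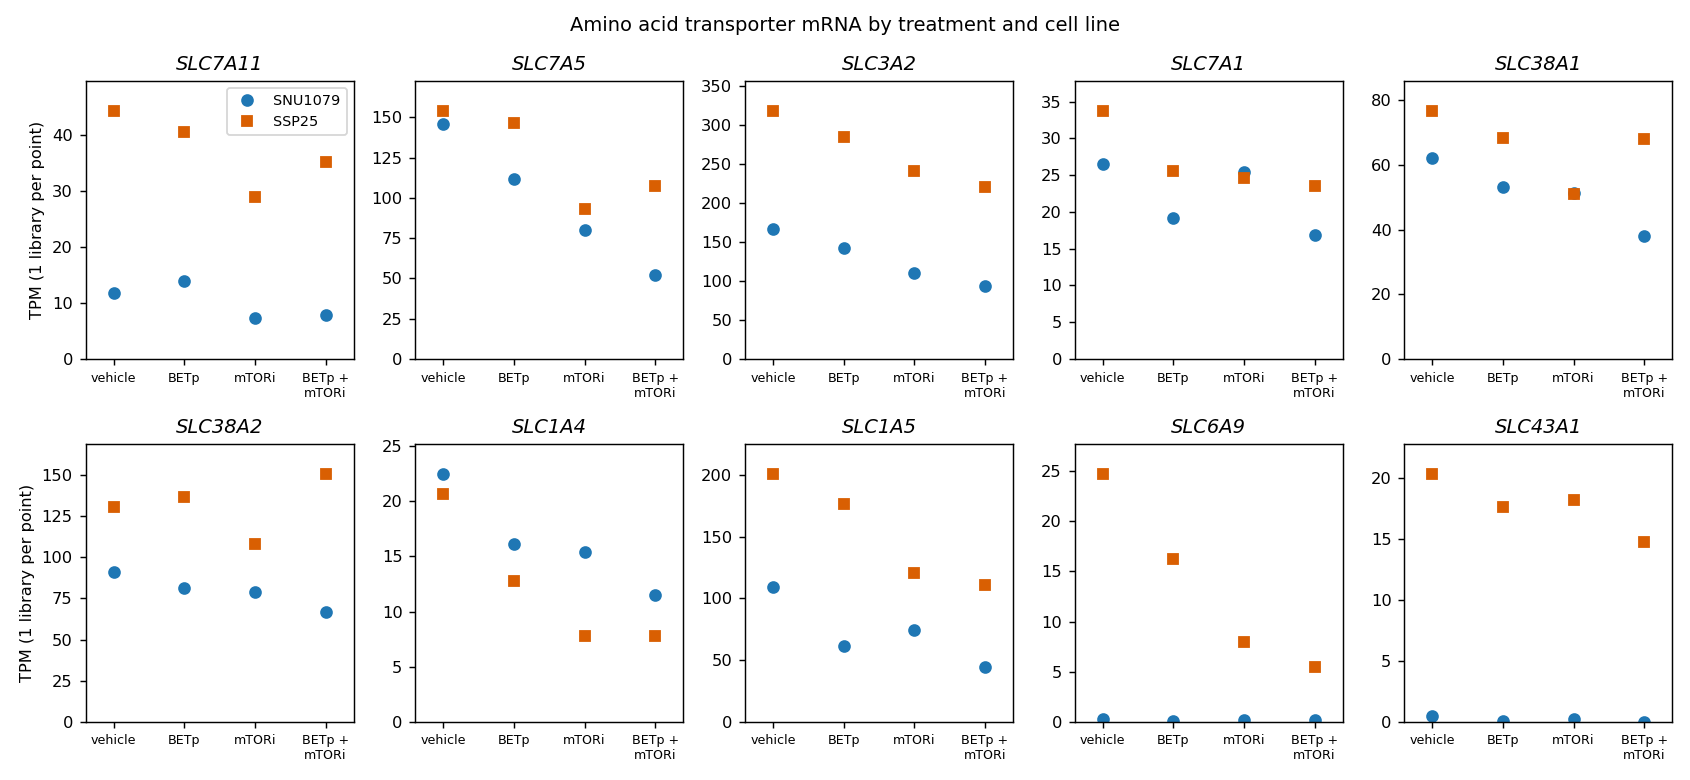
TPM (linear axis from 0, scaled for each gene) of the 10 carriers by treatment, 1 panel a gene and 1 point a library, with circles for SNU1079 and squares for SSP25. SLC3A2 reaches the highest level, 318.32 TPM in SSP25 with vehicle, and SLC6A9 and SLC43A1 stay under 0.5 TPM in SNU1079.

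The lines ordered the carriers differently. Averaged over the 4 libraries, SNU1079 had SLC3A2 at 128.4 TPM, then SLC7A5 at 97.57, SLC38A2 at 79.41, SLC1A5 at 72.38, SLC38A1 at 51.16, SLC7A1 at 21.97, SLC1A4 at 16.4 and SLC7A11 at 10.2 TPM. SSP25 had SLC3A2 at 266.08 TPM, then SLC1A5 at 152.25, SLC38A2 at 131.54, SLC7A5 at 125.24, SLC38A1 at 65.98, SLC7A11 at 37.3, SLC7A1 at 26.89, SLC43A1 at 17.75, SLC6A9 at 13.62 and SLC1A4 at 12.25 TPM. Neighbours in these orders overlapped in the ranges of their libraries, with these exceptions. In SNU1079 the range of SLC38A1 lay wholly above that of SLC7A1, and that of SLC7A11 above SLC43A1 and SLC6A9. In SSP25 SLC3A2 lay wholly above SLC1A5, SLC7A5 above SLC38A1, SLC38A1 above SLC7A11, and SLC7A1 above SLC43A1. Summed over the 10 genes, carriers took 636.1, 500.1, 444.1 and 331.2 TPM in SNU1079, and 1024.9, 925.3, 701.3 and 744.1 TPM in SSP25. Every treated sum was below vehicle of its line, and the lowest was BETp + mTORi in SNU1079 but mTORi in SSP25.

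Between the lines, 7 of the 8 carriers expressed in both were lower in SNU1079 and SLC1A4 was higher, and SLC6A9 and SLC43A1, near 0 in SNU1079, were lower as well, 9 of 10 in all. The lines were compared in a linear model (limma) of log2(TPM + 1) on line and treatment, with the 4 treatments as replicates of a line. P-values were adjusted over the 16060 genes that reached 1 TPM in 2 or more libraries, as all 10 carriers did. Of all genes tested, 35.8% were called lower in SNU1079 and 38.2% higher at an adjusted p under 0.05, so a call alone was common. Among the 12153 genes with a mean of 1 TPM or more in each line, these shares were 37.4% and 33.9%. SLC7A11 showed the largest ratio among carriers expressed in both lines, with a mean 3.66 times as high in SSP25 and a log2 difference of -1.80 ± 0.11 (SE; adjusted p = 8.51e-06). SLC1A5 and SLC3A2 were about as far apart as each other, with log2 differences of -1.09 ± 0.14 (adjusted p = 0.000297) and -1.07 ± 0.07 (adjusted p = 1.37e-05). SLC38A2 differed by -0.72 ± 0.12 (adjusted p = 0.00138), and SLC1A4 by 0.46 ± 0.14 in the other direction (adjusted p = 0.0188). SLC6A9 and SLC43A1 passed the filter on low values through SSP25 alone, so they had to differ, and no test of their difference is given. SLC7A5 (-0.42 ± 0.15), SLC38A1 (-0.37 ± 0.13) and SLC7A1 (-0.29 ± 0.11) had adjusted p-values of 0.0363, 0.0374 and 0.0432. Their calls were lost, at unchanged estimates, with no filter (adjusted p = 0.0929, 0.0861 and 0.0729) and with robust eBayes (0.0657, 0.0663 and 0.0651). They were also lost after quantile normalization, at -0.19, -0.17 and -0.17 (adjusted p = 0.298, 0.274 and 0.19). Rescaling TPM without mitochondrial genes, whose share was higher in SNU1079, gave -0.29, -0.23 and -0.16 (adjusted p = 0.117, 0.14 and 0.212). Without the BETp + mTORi library of either line SLC7A5 was at -0.22 and SLC38A1 at -0.21, and without that library or the mTORi library of either line SLC1A4 was no longer called (adjusted p = 0.0526 to 0.0645).

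The sequence before the start sites was read for 3 short motifs that stand for factors of interest here: TGATGNAA, the core to which ATF4 binds with a C/EBP partner, the E-box CACGTG, read by MYC and its relatives, and TGACNNNGC, the core of the antioxidant response element of NRF2. The windows were those of RefSeq on GRCh38.p14, each 300 bases long from 250 before to 50 after a start, searched on both strands, and the 16 windows of 9 carriers were matched by symbol. SLC7A11 had no window among them, so it was not searched for any motif. TGATGNAA occurred in 5 of the 16 windows, each of another gene, and in 3.62% of all 35116 windows. These 5 sites are shown because ATF4 is a known driver of carrier genes. Each is written along the gene's own strand with the matched letters in capitals. Those of SLC1A4 and SLC3A2 match on the reverse strand, so the reverse complement of the motif is seen.
SLC1A4, chr2:64989381-64989410, plus strand: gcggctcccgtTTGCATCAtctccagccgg
SLC3A2, chr11:62881725-62881748, plus strand: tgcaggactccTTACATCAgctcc
SLC38A1, chr12:46266502-46266531, minus strand: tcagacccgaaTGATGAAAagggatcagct
SLC7A1, chr13:29595663-29595692, minus strand: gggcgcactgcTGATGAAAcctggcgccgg
SLC1A5, chr19:46784893-46784922, minus strand: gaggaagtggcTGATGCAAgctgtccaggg
The E-box occurred in 3 of the 16 windows and in 7.26% of all windows. It is shown because MYC is a well-known target of BET protein loss. In these lines, however, the paper reports c-Myc protein as unchanged by ARV825, and MYC and ATF4 levels as unaffected by treatment.
SLC43A1, chr11:57515798-57515825, minus strand: agcgggcgagtCACGTGcgcgtgaaact
SLC7A5, chr16:87869621-87869648, minus strand: gccggacgacgCACGTGctccgagctgg
SLC1A5, chr19:46787327-46787354, minus strand: gcgggagtggtCACGTGgacaggacggg
TGACNNNGC occurred in 4 of the 16 windows (SLC3A2, SLC7A1, SLC7A5 and SLC1A5) and in 13.3% of all windows. A match describes letters and is not a measured binding site, and no match overlapped another. The 250 bases before the start of SLC7A5, which held the E-box, are given whole, with the E-box in capitals. SLC7A5 was below vehicle with mTORi in both lines, as were all the carriers, and a link to the motif was not tested.
SLC7A5, chr16:87869508-87869757, minus strand: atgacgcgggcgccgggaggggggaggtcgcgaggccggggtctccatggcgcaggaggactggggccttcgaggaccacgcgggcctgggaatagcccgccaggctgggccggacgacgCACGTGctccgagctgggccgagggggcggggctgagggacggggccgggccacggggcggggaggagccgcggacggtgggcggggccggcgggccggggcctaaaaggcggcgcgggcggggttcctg

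With mTORi, all 8 carriers expressed in both lines were below vehicle in each, where 46.9% of genes expressed in both lines were. With SLC6A9 and SLC43A1, whose values in SNU1079 were under 0.5 TPM, the count was 10 of 10, against 41.5% of all genes tested. The values kept ran from 55.2% of vehicle for SLC7A5 to 96.1% for SLC7A1 among the 8 genes expressed in SNU1079. In SSP25 they ran from 32.3% for SLC6A9 to 89.3% for SLC43A1. In 5 carriers, SLC7A11, SLC7A5, SLC3A2, SLC38A1 and SLC1A4, both libraries with mTORi lay below both without it in each line, which 13.3% of genes did.

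To use all 8 libraries, mTORi present was compared with absent, in a model with line and BETp. SLC3A2 fell with mTORi by 0.49 on the log2 scale (SE 0.07, adjusted p = 0.0428) and was the 1 carrier called, where 0.884% of all genes were called lower. SLC7A5 had the largest estimate at -0.77 ± 0.14 and stood just outside the threshold (adjusted p = 0.0515). So did its fellow light chain SLC7A11 at -0.55 ± 0.10 (adjusted p = 0.0561), and SLC1A4 at -0.73 ± 0.14 (adjusted p = 0.0566) and SLC1A5 at -0.60 ± 0.13 (adjusted p = 0.0632). SLC6A9, averaged over SSP25 and a line where it was at 0.30 TPM or less, measured -0.76 ± 0.29 (adjusted p = 0.18), and SLC38A1 measured -0.33 ± 0.13 (adjusted p = 0.178). SLC43A1, SLC7A1 and SLC38A2 gave -0.21 ± 0.11, -0.20 ± 0.10 and -0.15 ± 0.12, the smallest of the 10 (adjusted p = 0.284, 0.291 and 0.485). At an unadjusted p under 0.05, 7 carriers were lower, against 19.3% of all genes. SLC6A9, barely expressed in SNU1079, was among them. The median of the 10 estimates was -0.52 and that of all genes -0.11, and after quantile normalization, which sets the median of all genes to 0.00, the carriers' median was -0.39 and SLC3A2 was no longer called (-0.37, adjusted p = 0.1). The call of SLC3A2 was also lost with any 1 library left out (adjusted p = 0.0705 to 0.147), although the estimates stayed between -0.53 and -0.46.

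With BETp alone, 6 of the 8 carriers expressed in both lines were below vehicle in each, against 41.4% of genes expressed in both, the exceptions being SLC7A11 and SLC38A2. With SLC6A9 and SLC43A1 the count was 8 of 10, against 38.1% of all genes. The lowest value in SNU1079 among expressed genes was that of SLC1A5, at 56.4% of vehicle, and the lowest in SSP25 that of SLC1A4, at 61.8%. SLC7A1 was alike in the lines, at 72.2% in SNU1079 and 75.9% in SSP25. SLC7A11, by contrast, was at 118% in SNU1079 and 91.5% in SSP25, and SLC38A2 at 89.4% and 105%. In 1 carrier, SLC43A1, both libraries with BETp lay below both others in each line, where 9.82% of genes did, and in SNU1079 these were values under 0.5 TPM.

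None of the 10 carriers passed the test when BETp present was compared with absent, where 1.36% of all genes were called lower. SLC1A5 measured -0.47 ± 0.13 and SLC7A1 -0.37 ± 0.10 (adjusted p = 0.0995 and 0.0969), which were the smallest adjusted p-values among the carriers. SLC1A4, SLC43A1 and SLC3A2 measured -0.37 ± 0.14, -0.30 ± 0.11 and -0.19 ± 0.07 (adjusted p = 0.177, 0.158 and 0.155). These 5 genes were lower at an unadjusted p under 0.05, as were 17.2% of all genes. Of them, SLC43A1 was barely expressed in SNU1079. SLC6A9 (-0.32 ± 0.29), SLC7A5 (-0.21 ± 0.14), SLC38A1 (-0.10 ± 0.13), SLC38A2 (0.04 ± 0.12) and SLC7A11 (0.12 ± 0.10) had adjusted p-values from 0.393 to 0.882. The median of the 10 was -0.26 and that of all genes -0.08. After quantile normalization the median of the 10 was -0.16. The difference between the drugs was not tested.

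**Figure D2:**
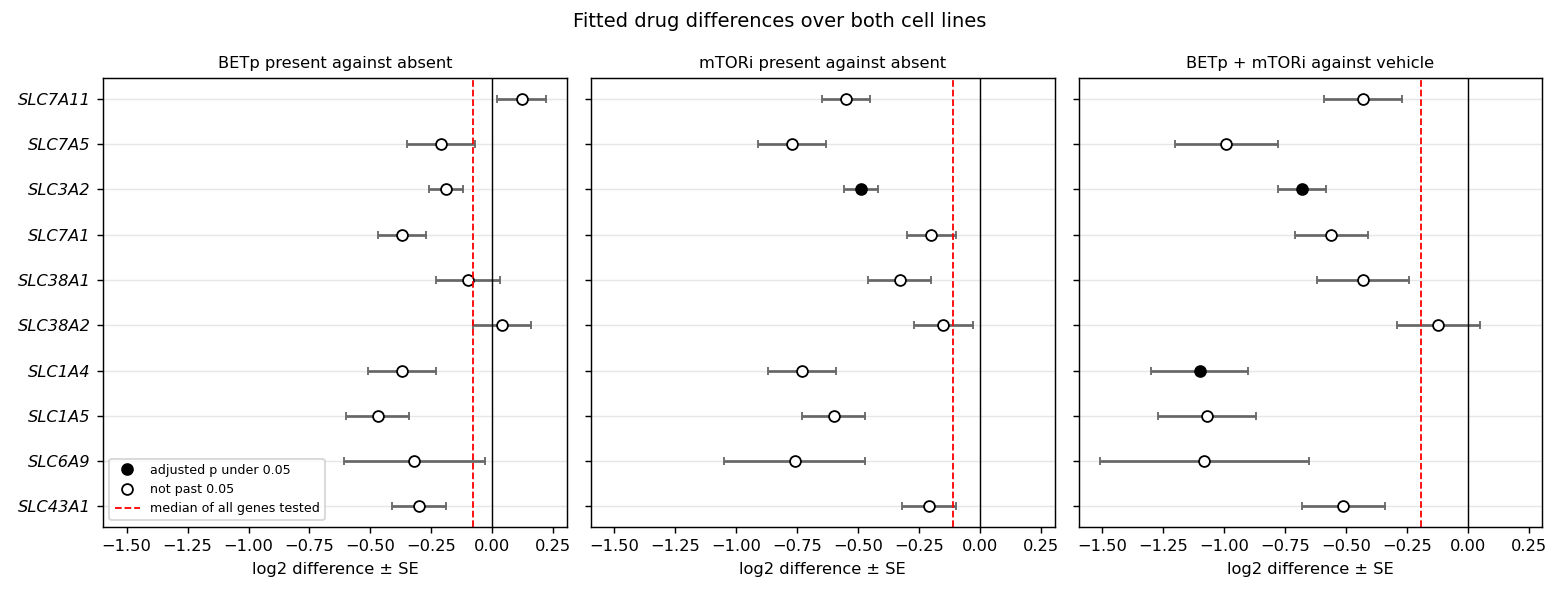
Log2 differences on the log2(TPM + 1) scale (points, with bars of 1 SE) of the 10 carriers for BETp present against absent, mTORi present against absent and BETp + mTORi against vehicle, from limma over 8 libraries, with a dashed line at the median of all genes tested. Filled points passed an adjusted p of 0.05: SLC3A2 for mTORi, and SLC3A2 and SLC1A4 for BETp + mTORi.

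With BETp + mTORi, 7 of the 8 carriers expressed in both lines were below vehicle in each, against 57.0% of genes expressed in both, and SLC38A2 was the exception. With SLC6A9 and SLC43A1 the count was 9 of 10, against 51.0% of all genes. The combination was the lowest of the 4 treatments in both lines for 3 of the 8, SLC3A2, SLC7A1 and SLC1A5, against 25.7% of genes expressed in both, and with SLC43A1 for 4 of 10, against 21.9% of all genes. SLC7A5 was at 35.9% of vehicle in SNU1079 and 69.8% in SSP25, SLC1A5 at 40.6% and 55.1%, SLC1A4 at 51.2% and 37.9%, and SLC3A2 at 56.1% and 69.1%. The arginine carrier SLC7A1 stood at 63.5% and 69.9%. SLC7A11 was at 66.0% in SNU1079 and 79.5% in SSP25, above the library with mTORi alone in both lines.

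SLC3A2 fell with BETp + mTORi by 0.68 on the log2 scale (SE 0.10, adjusted p = 0.0416) and SLC1A4 by 1.10 (SE 0.20, adjusted p = 0.0489). These were 2 of 10 carriers, where 1.52% of all genes were called lower. SLC1A5 at -1.07 ± 0.20 missed the threshold (adjusted p = 0.0508), as did SLC7A5 at -0.99 ± 0.21 (adjusted p = 0.0617) and SLC7A1 at -0.56 ± 0.15 (adjusted p = 0.089). SLC43A1 measured -0.51 ± 0.17, SLC7A11 -0.43 ± 0.16 and SLC6A9 -1.08 ± 0.43 (adjusted p = 0.123, 0.148 and 0.178). The glutamine carriers SLC38A1 and SLC38A2 measured -0.43 ± 0.19 and -0.12 ± 0.17 (adjusted p = 0.197 and 0.693). At an unadjusted p under 0.05 all carriers but these SLC38 genes were lower, 8 of 10, against 22.5% of all genes. These include SLC6A9 and SLC43A1, which were barely expressed in SNU1079, and their estimates average both lines. The difference of SLC6A9 from vehicle was -0.15 in SNU1079 and -2.0 in SSP25. That of SLC43A1 was -0.58 in SNU1079, from values under 0.5 TPM, and -0.44 in SSP25. The median of the 10 was -0.62 and that of all genes -0.19, and after rescaling without mitochondrial genes, whose share was higher with BETp + mTORi than with vehicle in both lines, these were -0.56 and -0.13 with neither gene called (adjusted p = 0.0628 for SLC3A2 and 0.073 for SLC1A4). After quantile normalization the carriers' median was -0.39, again with neither called (adjusted p = 0.106 for each). SLC3A2 also lost its call without any 1 library (adjusted p = 0.055 to 0.151), and SLC1A4 without any but an mTORi library (adjusted p = 0.0949 to 0.189).

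**Figure D3:**
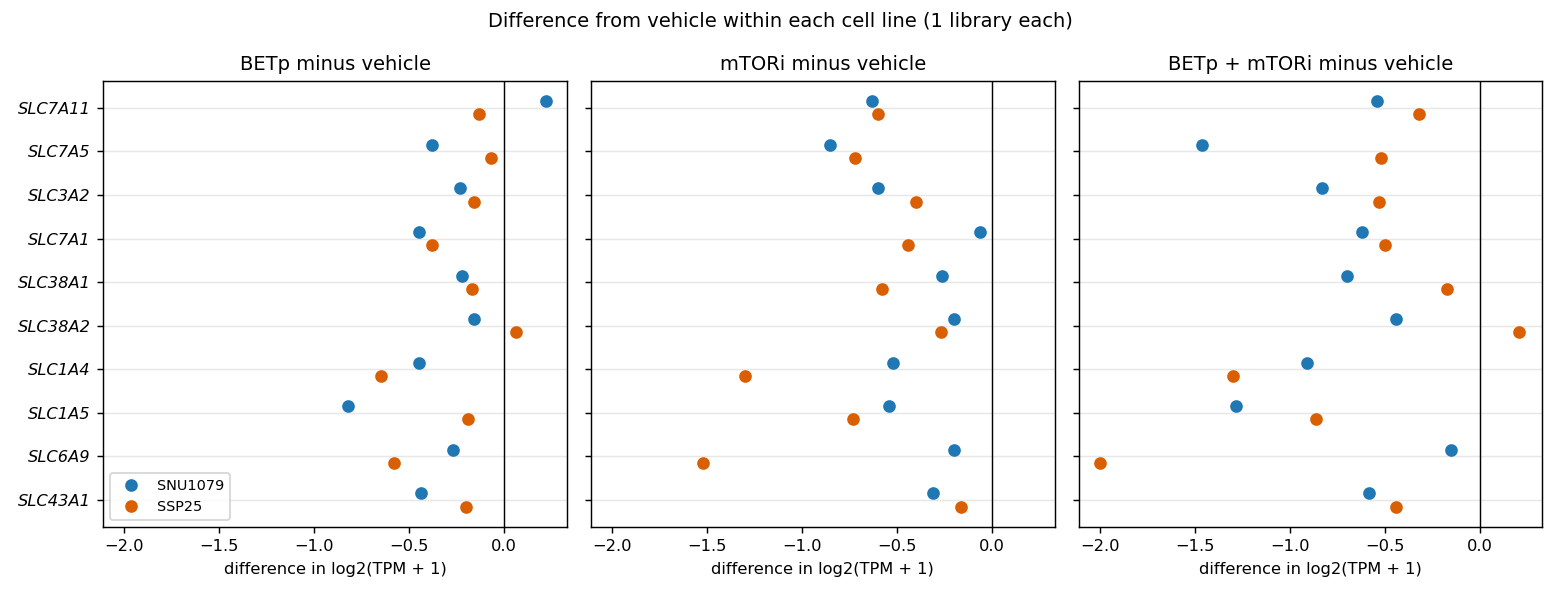
Log2 difference from vehicle of the same line, on the log2(TPM + 1) scale, for BETp, mTORi and BETp + mTORi in SNU1079 and SSP25, with 1 library behind each value. SLC38A2 with BETp + mTORi is at -0.44 in SNU1079 and 0.21 in SSP25.

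Compared with vehicle singly, the drugs gave no called carrier. With BETp the smallest adjusted p among carriers was that of SLC1A4 (-0.55 ± 0.20, adjusted p = 0.508), and 3 carriers, SLC1A4, SLC1A5 and SLC7A1, were lower at an unadjusted p under 0.05, against 6.50% of all genes. Of all genes, 0.00623% were called in either direction. With mTORi, SLC1A4 measured -0.91 ± 0.20, SLC7A5 -0.79 ± 0.21, SLC7A11 -0.62 ± 0.16 and SLC3A2 -0.50 ± 0.10 (adjusted p = 0.413 for each), and with SLC1A5 at -0.64 ± 0.20 (adjusted p = 0.417) these 5 were lower at an unadjusted p under 0.05. Of all genes, 8.75% were lower at that level and 0.0125% were called in either direction. All 3 comparisons share the vehicle libraries.

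Departure from additivity, by which the effect of both drugs exceeded or fell short of their summed single effects, was not detected for any carrier. The estimates lay between 0.01 ± 0.15 for SLC3A2 and 0.36 ± 0.28 for SLC1A4, all at or above 0, and none had an unadjusted p under 0.05, against 2.00% of all genes at that level and 0.00% called by adjusted p. The SE of 0.15 to 0.61 leaves room for departures, of a size that differs by gene. For SLC6A9 (0.21 ± 0.61) they could be as large as its single effects of -0.42 with BETp and -0.86 with mTORi. For SLC3A2 (0.01 ± 0.15) a departure as large as its mTORi effect of -0.50 lay outside that room. For SLC1A4 the positive estimate came with SSP25 values of 7.81 TPM both with mTORi and with BETp + mTORi, while in SNU1079 the value was lower with both drugs than with either.

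The lines differed in some responses at an unadjusted p under 0.05, but no carrier passed the adjusted test of the difference itself. For BETp, averaged over mTORi, the response of SLC1A5 was lower in SNU1079 than in SSP25 by a log2 difference of -0.62 ± 0.10 (adjusted p = 0.186), SLC7A5 by -0.56 ± 0.14 (adjusted p = 0.278) and SLC38A2 by -0.47 ± 0.16 (adjusted p = 0.347). Those were 3 of 10 carriers at an unadjusted p under 0.05, against 12.4% of all genes, with 0.00623% of all genes called by adjusted p. Those 3 were among the 8 carriers expressed in both lines. For mTORi, SLC7A5 differed by -0.39 ± 0.14 and SLC3A2 by -0.21 ± 0.08 (adjusted p = 0.333 and 0.349), 2 of the 8 carriers at an unadjusted p under 0.05, against 14.7% of genes expressed in both lines. Over all genes tested these shares were 14.2%, and 0.00% called by adjusted p. The difference of SLC6A9, at 0.30 TPM or less in SNU1079, is set by that low level and was not counted. For SLC7A5 both estimates had the same sign, and its lowest value was the combination library of SNU1079.

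Because SLC3A2 serves several light chains, its level was set beside the sum of 6 of them, SLC7A5, SLC7A6, SLC7A7, SLC7A8, SLC7A10 and SLC7A11. The sum was 197.27, 164.36, 123.95 and 83.08 TPM in SNU1079 and 215.70, 208.52, 138.10 and 156.97 TPM in SSP25. SLC3A2 divided by it gave 0.847, 0.868, 0.888 and 1.13 in SNU1079 and 1.48, 1.37, 1.74 and 1.4 in SSP25. The ratio was above all those of SNU1079 in every library of SSP25, and within SNU1079 it was highest with BETp + mTORi. SLC7A5 made up most of the light chain sum, from 73.8% with vehicle to 62.9% with BETp + mTORi in SNU1079 and 67.4% to 71.4% in SSP25. SLC7A11 made up 5.85% to 9.38% in SNU1079 and 19.5% to 22.5% in SSP25, and SLC7A6, which exchanges cationic for neutral amino acids, was above SLC7A11 in all SNU1079 libraries, at 21.69 to 37.70 TPM. These are ratios of transcripts, with 1 library each and no test.

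**Figure D4:**
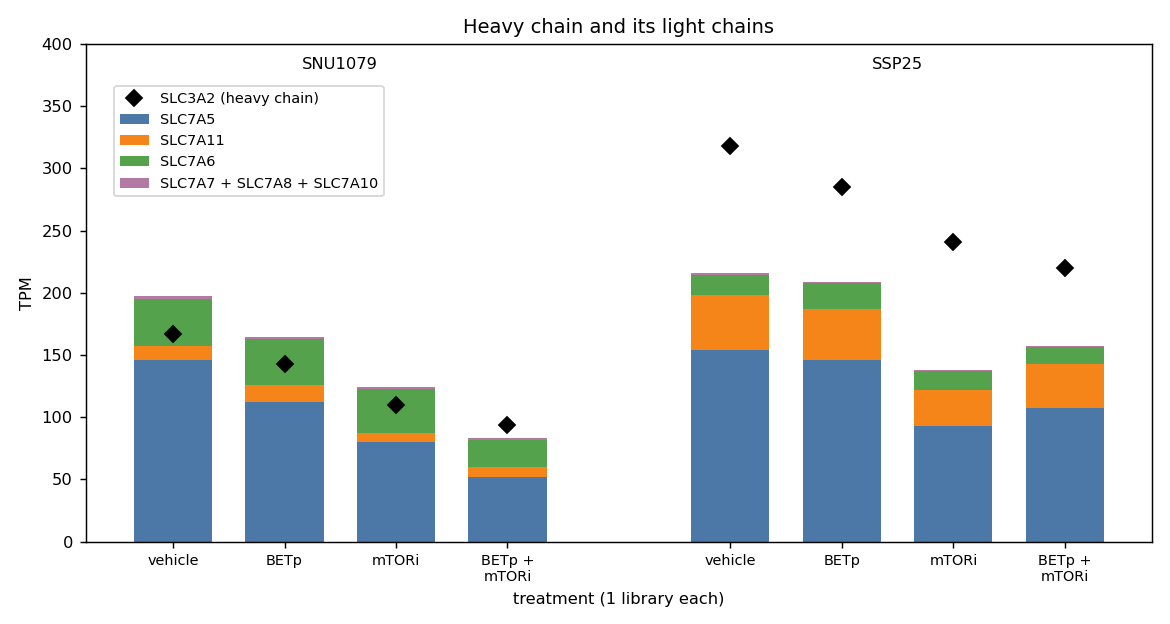
TPM of the heavy chain SLC3A2 (diamonds) beside the stacked TPM of its light chains (bars) in each library of SNU1079 and SSP25. The diamond lies above the bar in all 4 SSP25 libraries and in SNU1079 with BETp + mTORi alone, where the ratio was 1.13.

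Likeness between carriers was described over log2(TPM + 1) centred within each line, where the 8 libraries share treatments and vehicle cultures. Of 45 pairs, 17 (37.8%) had a Pearson r above 0.8, beside 5.76% of all pairs among the 10643 genes with a mean of at least 5 TPM. The highest was that of SLC3A2 with its light chain SLC7A5 (r = 0.96), followed by SLC1A5 with SLC43A1 and SLC38A1 with SLC7A5 (both 0.91). SLC38A2 stood furthest from the rest, with a median r of 0.50 and its lowest with SLC6A9 (-0.02), while SLC1A5 had the highest median (0.86). For SLC6A9 and SLC43A1 the values of SNU1079 lay near 0.

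**Figure D5:**
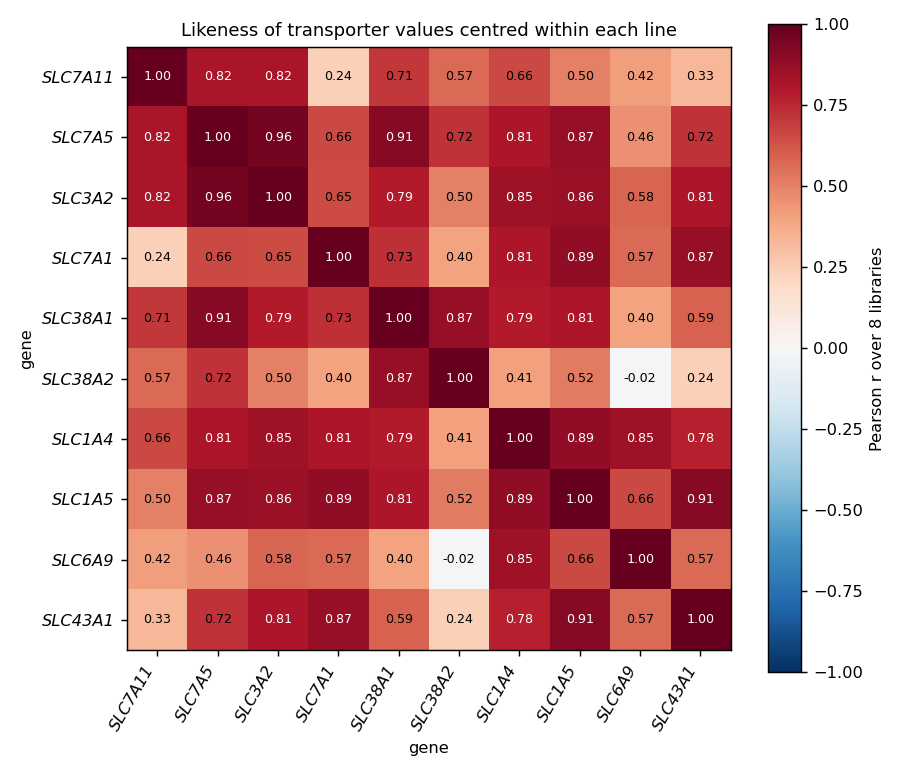
Pearson r between carriers over 8 libraries, from log2(TPM + 1) centred within each line, with the colour scale from -1 to 1. SLC3A2 with SLC7A5 is highest at 0.96, and the row of SLC38A2 is palest.

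Among the same 10643 genes, those most like SLC3A2 in the same measure were ATG101, ATP5B and MAD2L1BP (r = 0.996, 0.996 and 0.993), and those most like SLC7A5 were ATXN2, EZR and SLMAP (0.992, 0.992 and 0.990). TMTC3, UBE2L3 and RIPK2 were nearest to SLC7A11 (0.994, 0.991 and 0.988), CDYL, KATNBL1 and CDC73 to SLC1A4 (0.994, 0.990 and 0.988), and METTL10, TMEM206 and VEZF1 to SLC7A1 (0.986, 0.982 and 0.979). Beside SLC1A5 were JAZF1, PCDH1 and AARS (0.997, 0.987 and 0.986), the last of which charges alanine onto its tRNA. NRIP3, FAM129A and PHGDH were nearest to SLC6A9 (0.994, 0.986 and 0.985), and PHGDH makes the first step of serine synthesis. PPP2R2A, LARP1 and RCBTB1 were nearest to SLC38A1 (0.990, 0.988 and 0.985), VPS4A, RUFY1 and SLC35A3 to SLC38A2 (0.987, 0.982 and 0.979), and AP1M1, DCTN4 and IGF2BP3 to SLC43A1 (0.988, 0.983 and 0.979). With so many genes and 8 libraries, high values are to be found for any gene, and they serve as a description.

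Of 28 other amino acid transporters listed, 14 were expressed enough to be tested and 0 were called in limma for BETp, mTORi or BETp + mTORi. Their medians were -0.12, -0.22 and -0.36, beside -0.26, -0.52 and -0.62 for the 10 carriers. SLC6A6, the taurine carrier, had the largest estimate with mTORi (-0.67 ± 0.14, adjusted p = 0.0624) and SLC38A5, a glutamine carrier expressed in SSP25 and under 1 TPM in SNU1079, the largest with BETp + mTORi (-0.67 ± 0.18, adjusted p = 0.089). SLC7A6 with mTORi measured -0.37 ± 0.15 (adjusted p = 0.2). For BETp present, SLC38A5 and SLC7A7 were furthest, at -0.40 ± 0.12 and -0.33 ± 0.13 (adjusted p = 0.118 and 0.198). SLC7A7 was low in both lines, at 0.85 to 1.53 TPM in SNU1079 and 0.38 to 1.20 TPM in SSP25.

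ATF4 and genes of its pathway made a list of 22, of which 21 were tested. The counts of this and the next lists stand beside 0.884% of all genes called lower with mTORi, 1.36% with BETp and 1.52% with BETp + mTORi. With mTORi present 5 fell, among them NUPR1 (-0.79 ± 0.08, adjusted p = 0.0274), a stress-induced chromatin protein, and CHAC1, which degrades glutathione (-1.20 ± 0.18, adjusted p = 0.0428). With BETp present 3 fell, NUPR1 (-0.94 ± 0.08, adjusted p = 0.00635), the pseudokinase TRIB3 (-1.01 ± 0.16, adjusted p = 0.0369) and the tRNA exporter XPOT (-0.57 ± 0.10, adjusted p = 0.0434). With BETp + mTORi 7 fell, among them NUPR1 (-1.74 ± 0.12, adjusted p = 0.00579), TRIB3 (-1.81 ± 0.24, adjusted p = 0.0337) and the tRNA synthetase gene WARS (-1.03 ± 0.13, adjusted p = 0.0337). WARS also fell with mTORi (-0.64 ± 0.09), as did the transcription factor DDIT3 (-0.63 ± 0.08, both adjusted p = 0.0428), and XPOT fell with BETp + mTORi (-1.08 ± 0.16, adjusted p = 0.0393). None of the list was called higher. PPP1R15A and ATF3 had positive estimates with BETp + mTORi (0.55 ± 0.19 and 0.39 ± 0.16, adjusted p = 0.128 and 0.179), as did ATF5 with mTORi (0.33 ± 0.11, adjusted p = 0.151), and these 3 were named after their values were seen. The medians were -0.51 with mTORi, -0.26 with BETp and -0.73 with BETp + mTORi, beside -0.11, -0.08 and -0.19 for all genes. With 1 library left out, 0 of the list were called with mTORi, 1 to 2 with BETp and 0 to 7 with BETp + mTORi. The transcript of ATF4 itself measured -0.16 ± 0.11, -0.32 ± 0.11 and -0.49 ± 0.17 (adjusted p = 0.426, 0.146 and 0.135). The paper reports ATF4 levels as unaffected, and here ATF4 was not called. With BETp + mTORi it was at 76.6% of vehicle in SNU1079 and 66.3% in SSP25, from 1 library each.

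In the use of cystine and glutathione, for which SLC7A11 brings the cystine, the medians of 15 genes were 0.17 with BETp, -0.38 with mTORi and -0.08 with BETp + mTORi, beside -0.08, -0.11 and -0.19 for all genes. With BETp present 2 of them rose, the heme oxygenase HMOX1 (0.53 ± 0.07, adjusted p = 0.017) and the thioredoxin reductase TXNRD1 (0.83 ± 0.14, adjusted p = 0.0396). Of all 16060 genes tested, 292 were called with BETp in either direction, 218 of them lower, so calls of a rise were rarer than those of a fall. With mTORi present 2 of the list fell, HMOX1 (-0.56 ± 0.07, adjusted p = 0.0332) and the glutathione reductase GSR (-0.39 ± 0.07, adjusted p = 0.0488). With BETp + mTORi 1 fell, CBS, which makes cystathionine on the way to cysteine (-1.69 ± 0.27, adjusted p = 0.0438). HMOX1 measured 118.22, 185.65, 80.61 and 111.48 TPM in SNU1079 and 64.32, 89.32, 44.37 and 65.73 TPM in SSP25, so the lines shared the order BETp highest and mTORi lowest. With 1 library left out, 0 to 2 genes of this list were called with BETp, and 0 with mTORi or with BETp + mTORi. SLC7A11, a member of this list, shared the mTORi end of it in both lines but the BETp end in SNU1079 alone.

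Among 15 genes of glutamine and glutamate use, GPT2, a transaminase that makes alanine, fell in all 3 comparisons, with log2 differences of -0.56 for BETp, -0.71 for mTORi and -1.27 for BETp + mTORi (SE 0.10, 0.10 and 0.14, adjusted p = 0.0403, 0.0428 and 0.0315). PSAT1, the transaminase of serine synthesis, fell with mTORi (-1.26 ± 0.21) and with BETp + mTORi (-1.89 ± 0.32; adjusted p = 0.0481 and 0.0461). The list held no other call in these comparisons, and its medians were -0.12, -0.24 and -0.31. With 1 library left out, 0 of it were called with BETp or mTORi and 0 to 3 with BETp + mTORi. Of 24 tested genes that sense amino acids upstream of mTORC1, 0 were called in limma, with medians of -0.07 for BETp, -0.16 for mTORi and -0.18 for BETp + mTORi. The leucine sensor SESN2 measured -0.66 ± 0.13 with mTORi and -0.76 ± 0.20 with BETp + mTORi (adjusted p = 0.0595 and 0.0883), SESN3 -0.51 ± 0.21 with mTORi (adjusted p = 0.211), and the arginine sensor GATSL3 -0.60 ± 0.15 with BETp + mTORi (adjusted p = 0.0805). With BETp, SESN3 measured 0.38 ± 0.21 and NPRL2 -0.31 ± 0.18 (adjusted p = 0.322 and 0.326). SESN3 was at 0.17 TPM or less in SSP25, so its estimates average SNU1079 with a line that barely expressed it. Of 5 tested genes among SLC3A2 and its light chains, SLC3A2 was the only call, with mTORi and with BETp + mTORi, and the medians were -0.19, -0.49 and -0.56.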

How the data were processed

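The files deposited by the authors hold TPM per gene, with a table for each line, and their processing notes name DESeq2, edgeR and GRCh37. For the aligner and annotation, the tools used were not given in the sources used here. Libraries were strand-specific, but whether counting used strand is not given. Treatments were assigned to columns from the sample titles. The 10 members and the gene lists were chosen with earlier results of these data known. Every member was named in every comparison. From each list up to 4 called genes per comparison were taken, else the 2 of largest change, and 3 genes most like each member.

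Values were transformed to log2(TPM + 1), and the 16060 genes that reached 1 TPM in 2 or more libraries entered limma 3.58.1 (R 4.3.3, eBayes with an intensity trend). Models held treatment and line (3 residual degrees of freedom), line and both drugs (4), or line-by-drug terms (2). P-values were two-sided and Benjamini-Hochberg adjusted over all genes, with calls at 0.05. Same-numbered libraries were paired because they are the same cell line, kept as a block. Models were checked on simulated data. Positions came from GENCODE on GRCh37. Alternatives were quantile normalization, a pseudocount of 0.1, a filter at 5 TPM or none, rescaling without mitochondrial genes, robust eBayes without trend, no block, and each library left out. No list was tested, and a list's median is a description only. Counts over the 12153 genes with a mean of 1 TPM or more in each line were added after the data had been seen.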

Additional observations from a re-analysis of the deposited data

Results flagged for a closer look

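In 3 cases the lines went opposite ways against vehicle, with 1 library on each side, so the difference in that comparison was not tested. With BETp, SLC7A11 was 0.22 above vehicle in SNU1079 and 0.13 below it in SSP25 (-0.13) on the log2(TPM + 1) scale, a difference of 0.35 (SNU1079 minus SSP25). SLC38A2 with BETp was at -0.16 in SNU1079 and 0.06 in SSP25, a difference of -0.22. SLC38A2 with BETp + mTORi was at -0.44 and 0.21, a difference of -0.65. When BETp was averaged over mTORi, the line difference was tested in limma and gave 0.08 ± 0.18 for SLC7A11 (adjusted p = 0.898) and -0.47 ± 0.16 for SLC38A2 (adjusted p = 0.347).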

How the results depend on the processing

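For BETp + mTORi against vehicle, 2 carriers were called, 4 with a filter at 5 TPM, and 0 with a pseudocount of 0.1, no filter, quantile normalization, rescaling without mitochondrial genes, robust eBayes or no replicate block. With each library left out in turn, 0 to 2 were called. For mTORi present against absent, 1 was called, 1 after rescaling without mitochondrial genes, 5 with a filter at 5 TPM, and 0 with a pseudocount of 0.1, no filter, quantile normalization, robust eBayes, no replicate block or any library left out. Fewer genes were tested with the stricter filter (11772) and more with none (29421). For the lines, 10 were called, including SLC6A9 and SLC43A1, which had to differ. The count stayed at 10 with a pseudocount of 0.1 or a filter at 5 TPM. It was 7 with no filter, quantile normalization, rescaling without mitochondrial genes or robust eBayes. With a library left out it was 6 to 9, the 6 without either BETp + mTORi library. In the other comparisons 0 carriers were called in every fit. Over the 4 comparisons followed gene by gene, 590 values were recomputed: 507 kept direction and side of the threshold, 71 lost the call, 7 gained it and 5 reversed, all 5 of SLC38A2. Its difference for BETp + mTORi, -0.12, was 0.09 after quantile normalization and -0.41 to 0.18 with a library left out, and that for BETp present, 0.04, was -0.10 to 0.13. The cause was not tested. Over all genes, calls for BETp + mTORi went from 291 to between 0 and 145 with a library left out, for mTORi present from 168 to between 1 and 7, and for BETp present from 292 to between 37 and 227, each with 0 without the replicate block, so calls of list genes depend on these choices too. Depth is unknown, so no limit of detection could be given.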
